A study of Arabidopsis thaliana with 13 samples.

Results

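The 88 Arabidopsis thaliana genes described here were at least 2-fold higher at 36 h than at 24 h on both arrays that compared these times. They are 88 of the 3689 named genes on the arrays, and were chosen by measured values. The log2 ratio of each gene, centred on the array median and averaged over its spots (features), had to be at least 1 on the array labelled dark and on the array whose labels state no light condition. The mean over 4 of the 5 arrays of 12 h against 0 h had to be above -0.4, and a short list of genes was left out by name. Of the 135 genes at or above 1 on both 36 h arrays, 42 did not pass the 12 h bound, and 5 passed every threshold but were left out by name (AT1G21400, AT3G62550, KIN2, COR47 and APG8A).

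The series follows transcript levels over the day, with 13 spotted cDNA arrays on which RNA of 2 times was hybridised together in 2 colours. The groups used are 6 h against 0 h (2 arrays), 12 h against 0 h (5 arrays), 18 h against 0 h (2 arrays), 24 h against 0 h (1 array), 36 h against 24 h labelled dark (1 array), 36 h against 24 h with light not stated (1 array), and 60 h against 48 h (1 array). Plants of the 60 h array had grown under alternating 12 h of light and 12 h of dark before a move to continuous light, and were harvested 24 and 36 h later. Light is not stated for 6, 12, 18 and 24 h, and the labels give no ecotype, age, organ or number of plants pooled.

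Ratios were read as channel 2 over channel 1 and given with the later time on top. This direction is likely but is not stated in the sources used here, and the other reading turns every sign below. It rests on convention and on the dark array, where IVD, MCCA and MCCB, 3 genes of leucine breakdown known to be induced in the dark, stood at 3.06, 3.52 and 2.68 and the Calvin cycle genes PRK, RCA and SBPASE at -1.72, -1.35 and -2.67. In bulk RNA, a higher level per cell and more cells of a type cannot be told apart. PYK10, the 1 of 5 root markers that was measured, stood at -1.05 on the dark array and -0.86 on the other 36 h array. Of the 5 flower and seed markers, 0 were measured. A ratio between 2 times does not show which organ was sampled, so the organ could not be checked.

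As background, plants kept in the dark run out of the sugar and starch made in the light and turn to other fuels. Enzymes of branched-chain amino acid, lysine and methionine breakdown are then known to be induced, and in mitochondria their electrons reach ubiquinone through the electron-transfer flavoprotein and its oxidoreductase. Many plant transcripts also follow the circadian clock, which goes on in continuous light.

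**Figure D1:**
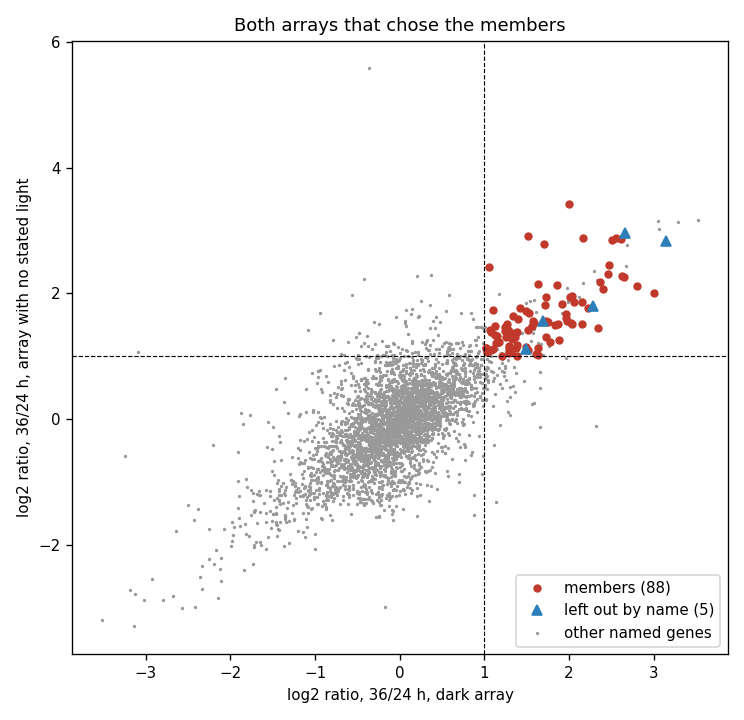
Log2 ratio of each named gene on the dark array (horizontal axis) and on the 36 h array with no stated light (vertical axis), later over earlier time, with dashed lines at the threshold of 1. The 88 members (red circles) lie at or above 1 on both axes because the rule put them there, blue triangles are the 5 genes left out by name, and grey dots are the other named genes.

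The values that chose the members are given as a description. The members' log2 ratio had a median of 1.55 on the dark array (1.02 to 3.01) and of 1.50 on the other 36 h array (1.01 to 3.42), against -0.041 and -0.038 over all named genes. A value of at least 1 on both arrays was found for 3.66% of the named genes. The 2 arrays had opposite channel orders, with the later time in channel 2 on the dark array and in channel 1 on the other. The members lay close together on both: 72 of 88 differed by less than 0.5, and 50 were higher on the dark array. The median of dark minus not stated was 0.06.

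For 5 members the 2 arrays differed by more than 1. AT1G69890 stood at 2.00 on the dark array and 3.42 on the other, the highest member value there. AT3G10300 stood at 1.51 and 2.92, AT4G33980 at 1.05 and 2.41, and AT2G47890 at 1.70 and 2.78, all lower on the dark array. AT1G19530 alone of the 5 went the other way, with 3.01 on the dark array and 2.00 on the other. Of its features, 1 fell from 1.28 on the dark array to -0.70 on the other. The rest lay closer together, at 3.18 and 2.67 and at 4.56 and 4.04. With 1 array each, the differences of these 5 members have no replicate check.

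The members nearest inside the threshold on the dark array were AT2G36220 at 1.02, AT5G66790 at 1.02 and AT5G57910 at 1.03, and the genes nearest outside were AT5G23405 at 0.997, UGT84A3 at 0.99 and AT4G34950 at 0.99. On the other 36 h array AT4G34180 at 1.01, AT4G32285 at 1.01 and AT4G28240 at 1.02 lay just inside, and GID1C at 0.996, AT1G06760 at 0.99 and AT1G13930 at 0.97 just outside. At the 12 h bound the nearest members were AT5G63620 at -0.37, AT3G02340 at -0.31 and PPDK at -0.28. The nearest genes below it were AT3G51730 at -0.45, AT1G04140 at -0.46 and AT3G62650 at -0.46.

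In a limma model fitted over all arrays (adjusted p under 0.05), 14 members passed as higher on the dark array, where 0.925% of all targets did, and 16 on the other 36 h array, where 0.824% did. The rule used these arrays, so nothing is read from either count.

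Most members have no name beyond their locus. A symbol is given for 10 of the 88 (11.4%) and for 542 of the 3689 named genes (14.7%), and a name in words for 11 members (12.5%) and 383 genes (10.4%). Grouping members by words in their names is therefore void, since far fewer than 80% have one. PDC2, TMT1 and AT5G61590 were named after their values were seen. The same holds below for AT5G18130, AT2G15960, AT3G53990, AT1G25275, AT1G49500, AT2G19350, AT5G40720, AT5G51840 and AT3G62870.

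Of a list of 13 amino acid breakdown genes, 6 were measured and 3 are members. The list was drawn up with results of these data known. MGL, methionine gamma-lyase, which cleaves methionine, stood at 2.51 on the dark array and 2.85 on the other 36 h array. ALDH7B4, an aldehyde dehydrogenase of the lysine breakdown route and known to be induced by stress, stood at 2.47 and 2.44. ETFQO, the oxidoreductase that passes electrons to ubiquinone, stood at 1.71 and 1.81. Of the 3 other measured genes of the list, AT4G33150 stood at 2.17 and 2.16 but had a 12 h mean of -0.53, below the bound, while D2HGDH (0.15 and 0.30) and AT2G26800 (-0.05 and -0.60) did not reach 1. ALDH6B2, the mitochondrial methylmalonate-semialdehyde dehydrogenase of valine breakdown, was not on the list and stood at 2.56 and 2.89, the second highest mean of all members.

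These enzymes were measured by several spots in most cases. All 4 features of ALDH6B2 were above 1, from 1.74 to 3.21 on the dark array and from 2.10 to 3.56 on the other. The 4 features of ALDH7B4 ran from 2.04 to 2.76 and from 2.17 to 2.66. The 3 features of MGL spread more, from 1.60 to 3.50 and from 1.17 to 4.07. ETFQO had 1 feature.

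At the other times these enzymes differed among themselves. ALDH7B4 stood at 1.02 and 0.72 on the 2 arrays of 6 h and between -0.76 and 0.09 on the 5 arrays of 12 h. ALDH6B2 stood at 0.80 and 0.39 at 6 h and between -0.24 and 0.86 at 12 h. MGL lay at 0.01 and 0.47 at 6 h, and between -0.79 and 0.08 at 12 h. ETFQO lay below 0 on both arrays of 6 h, at -0.37 and -0.24, and on both sides of 0 at 12 h, from -0.63 to 0.53. In the limma fit at 6 h, none of these 4 passed (adjusted p = 0.138 for ALDH7B4, 0.378 for ALDH6B2, 0.783 for MGL and 0.753 for ETFQO). At 60 h in continuous light all 4 lay below 0, with -0.55 for ALDH6B2, -0.07 for MGL, -0.29 for ALDH7B4 and -0.50 for ETFQO.

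PDC2 and PPDK both act on pyruvate. PDC2, a pyruvate decarboxylase of the fermentation route, stood at 1.64 on the dark array and 2.15 on the other 36 h array, and at 2.20 and 0.68 on the arrays of 6 h. PPDK, pyruvate orthophosphate dikinase, which converts pyruvate and phosphoenolpyruvate into each other, stood at 1.32 and 1.11 at 36 h and at -0.23 and -0.20 at 6 h. The 2 genes thus lay on opposite sides of 0 on both 6 h arrays, but neither passed the test there (limma adjusted p = 0.216 for PDC2 and 0.836 for PPDK). At 60 h PDC2 stood at -0.59 and PPDK at -0.16.

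TMT1, which carries sugars into the vacuole, stood at 1.26 on the dark array and 1.31 on the other. OSM34, an osmotin of the thaumatin-like family, stood at 1.33 and 1.27. Neither was far from 0 at 6 h, with 0.11 and 0.56 for TMT1 and 0.32 and -0.02 for OSM34. Osmotin-like genes have close relatives, and near-identical copies can hybridise to 1 cDNA spot.

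The other members with a name in words were AT5G61590, CCL and HON4. AT5G61590 (DEWAX), a transcription factor that represses wax synthesis genes and is known to be induced in the dark, stood at 1.97 on the dark array and 1.67 on the other 36 h array. At 6 h it stood at 0.97 and 0.73, and at 60 h at -0.61. CCL (CCR-like), whose transcript is known to be short-lived and controlled by the clock, stood at 2.16 and 1.51 at 36 h and at 2.09 and 1.07 at 6 h. Its 60 h value was 0.05. HON4, annotated as a histone H1 gene, stood at 1.08 and 1.11 at 36 h and lay near 0 at 6 h, with 0.14 and 0.27.

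Other lists had few measured genes. The bZIP53 gene, of the list of sugar starvation and dark response genes, stood at 0.42 on the dark array and 0.88 on the other 36 h array. SAG101, of leaf senescence, stood at -0.02 and 0.26. Of the 19 genes of abscisic acid and dehydration, 11 of fatty acid beta-oxidation and 12 of starch breakdown, 0 were measured by a named feature. In all, 9 of 94 listed genes were measured, so the lists say little of the pathways they stand for.

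The members with the highest mean over both 36 h arrays were otherwise mostly unnamed loci. AT5G50450 came first, with 2.61 on the dark array and 2.86 on the other, a mean of 6.65-fold. AT3G24870 stood at 2.17 and 2.89, AT5G02160 at 2.81 and 2.12, and AT1G33970 at 2.64 and 2.26. AT3G15630 stood at 2.62 and 2.27, AT1G16850 at 2.46 and 2.31, AT5G24490 at 2.36 and 2.18, and AT5G19050 at 2.40 and 2.06. These 8 and ALDH6B2, MGL and ALDH7B4 are the 11 members at or above 2 on both arrays.

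Features of 1 gene did not always go together. Of the 31 members with 2 or more features, 14 had every feature at or above 1 on both 36 h arrays, and 26 had every feature above 0. The median range between features of a gene was 0.597 on the dark array and 0.888 on the other. In AT1G19530, 3 features stood at 1.28, 3.18 and 4.56 on the dark array and at -0.70, 2.67 and 4.04 on the other. In AT5G40720, 1 feature stood at 3.68 and 3.76 and the other at -0.18 and -0.66, so its membership rests on 1 spot. Both spots are listed under the same cDNA sequence. In AT5G43830, 2 spots of the same sequence stood at 1.67 and -0.11 on the dark array and at 1.15 and -0.01 on the other. Repeated spots of other members differed less, but not always little. Those of AT3G32980 stood at 1.97 and 1.93 on the dark array. Those of AT4G30660 stood at 2.096 and 1.065 on the dark array and at 2.092 and 1.017 on the other. The reason was not tested. CCL had features at 3.83, 2.22 and 0.41 on the dark array and 3.51, 0.28 and 0.75 on the other. The features of AT4G39955 stood at -0.42 and 3.01 on the dark array and at 0.20 and 1.91 on the other. Those of AT4G17900 stood at 0.51 and 1.75 on the dark array and at 0.43 and 2.26 on the other. Of the 5 features of HON4, 1 stood at 0.19 on the dark array and -0.03 on the other. AT3G32980, in contrast, had 5 features between 1.86 and 2.17 on the dark array and between 1.52 and 2.41 on the other. The remaining 57 members had a single feature, for which no such check exists.

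**Figure D2:**
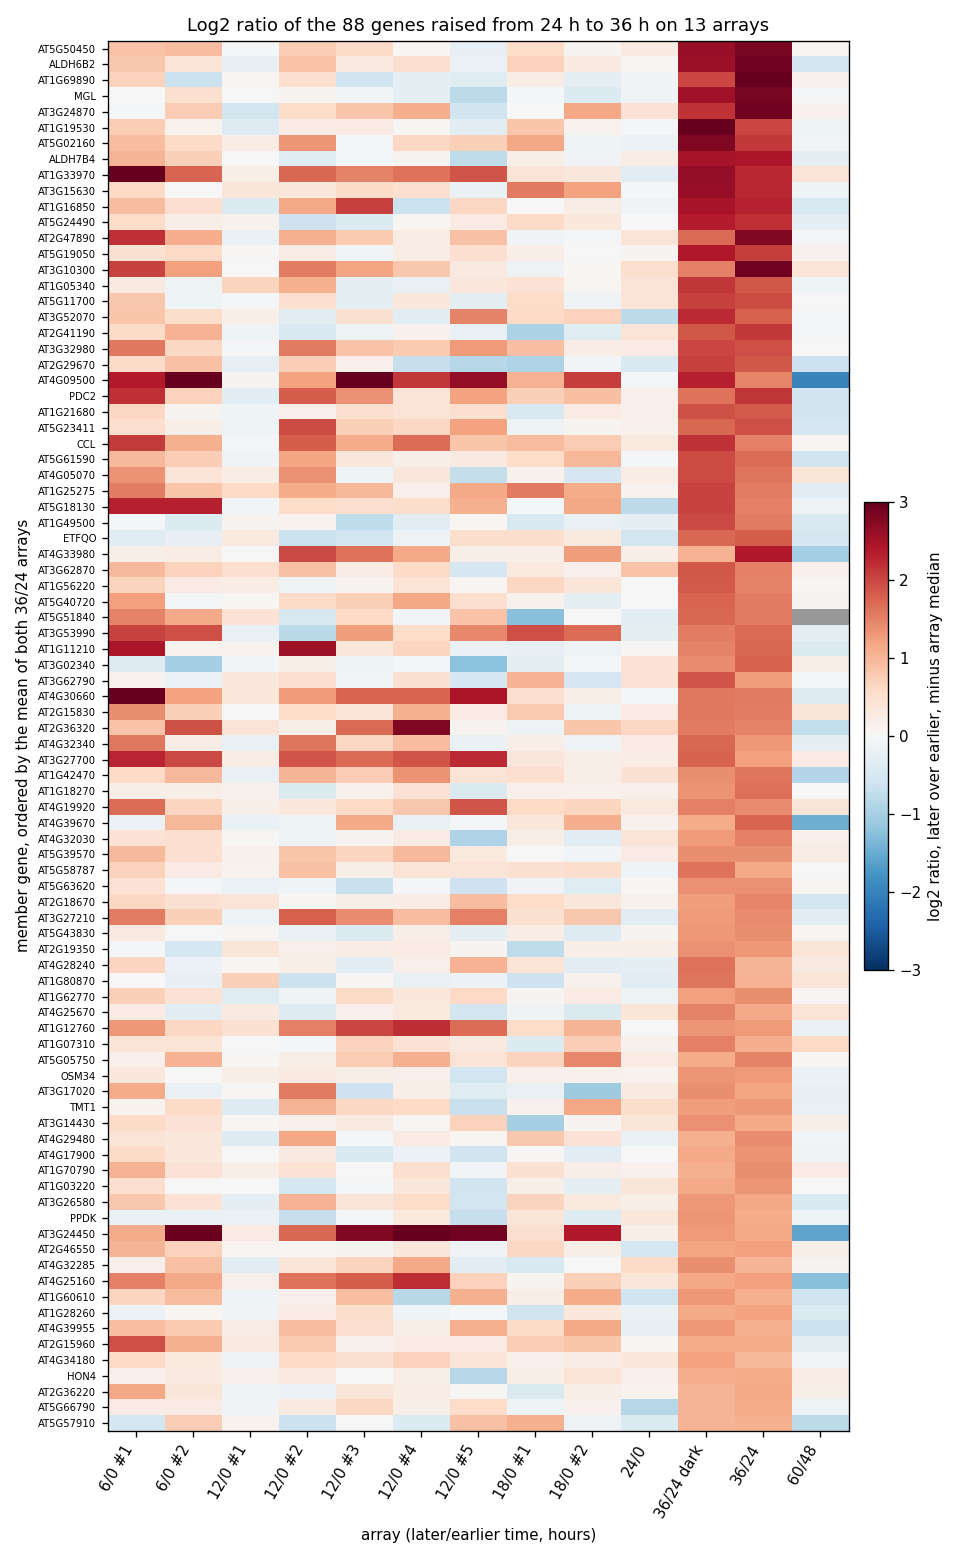
Centred log2 ratio, later over earlier time, of the 88 members (rows, by the mean of both 36 h arrays) on the 13 arrays (columns, hours), red above 0, blue below 0 and grey for a missing value. Both 36 h columns are red by the rule. The 6 h columns are mostly red, array 1 of 12 h is pale, and the 60 h column holds the 5 members at or below -1.

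The 6 h arrays were not used by the rule, although they share 0 h with the 12 h arrays that set its bound. The members were mostly higher at 6 h than at 0 h. Their median log2 ratio was 0.69 on array 1 and 0.46 on array 2, against 0.02 and -0.05 over all named genes. Of the 88 members, 67 (76.1%) were above 0 on both arrays, against 28.8% of all named genes and 32.3% of the named genes above the 12 h bound. Another 6 members were below 0 on both: AT1G49500, ETFQO, AT3G02340, AT2G19350, AT1G80870 and PPDK. The 2 arrays had opposite channel orders, and were read with ScanAlyze 2.44 and 2.33. The title and the channel labels of array 2 name its times in opposite orders, and the channels were followed. Read this way, the 2 arrays of 6 h correlated at 0.42 over features, and at -0.42 with array 2 turned. With that array turned, 11 members were above 0 on both and the fitted median at 6 h was 0.15, against 0.57 as labelled.

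At least 1 on both 6 h arrays was reached by 13 members, against 1.11% of the named genes, and by 0 members with array 2 turned. AT4G09500 stood at 2.38 and 3.05, AT1G33970 at 3.31 and 1.75, and AT5G18130 at 2.33 and 2.32. AT4G30660 stood at 3.08 and 1.21, and AT3G27700 at 2.28 and 1.99. The other 8 were AT2G47890, AT3G10300, CCL, AT5G51840, AT3G53990, AT3G24450, AT4G25160 and AT2G15960.

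For the tests, a limma model with 1 coefficient for each pair of times and a dye term was fitted to all 13 arrays, so that 1 estimate of the spread per target is shared. No member passed at 6 h after Benjamini-Hochberg adjustment over all 11290 targets, of which 0.00886% (1 target) passed. The smallest adjusted p of a member at 6 h was 0.0509, for AT5G18130 (2.32 ± 0.32, SE, 2 arrays), AT2G15960 (1.49 ± 0.24) and AT4G09500 (2.71 ± 0.45). At an unadjusted p under 0.05, 38 of the 88 members passed, 37 of them higher, against 15% of all targets in either direction and 7.48% higher. The count of members called was 10 without array 1 of 12 h and 1 without either array of 18 h, since all arrays share the spread. It was 6 when only targets with values on all 13 arrays were tested. The shares of all targets called in these settings are not given here, so nothing is read about the members from these counts.

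The comparisons of 12, 18 and 24 h also share 0 h, and each is given by its own values. At 12 h the members' medians on arrays 1 to 5 were 0.03, 0.46, 0.38, 0.34 and 0.24, against 0.02, 0.01, -0.04, 0.03 and -0.05 over all named genes. Array 1, titled single, was not used by the rule and had the narrowest ratios of all, with an SD over features of 0.382 against 0.626 to 0.858 on the other 12 arrays. Its correlation over features with arrays 2 to 5 was -0.007, -0.05, 0.06 and 0.02, against 0.13 to 0.57 among those 4. It was kept in the limma fit as an array of 12 h. On it 48 members (54.5%) were above 0, against 52.9% of the named genes. On the 4 arrays of the rule, 34 members were above 0 on all, against 14.5% of the named genes, which the lower bound raises.

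The limma test called 7 members higher at 12 h, where 1.84% of targets were called higher, and 0 lower. The rule used 4 of these 5 arrays as a lower bound, so the counts are a description and nothing is read from them. AT3G24450 gave the largest change, with 0.25, 1.71, 2.77, 3.26 and 2.93 on arrays 1 to 5 and a fitted 2.31 ± 0.40 (SE, adjusted p = 0.0269). AT4G09500 gave 0.09, 1.20, 3.02, 2.13 and 2.65, fitted at 1.96 ± 0.29 (adjusted p = 0.0259). Both were lowest on array 1. AT3G27700 was fitted at 1.62 ± 0.26, AT1G12760 at 1.59 ± 0.25, AT4G30660 at 1.52 ± 0.33, AT1G33970 at 1.37 ± 0.29 and AT4G25160 at 1.28 ± 0.29, with limma adjusted p between 0.0259 and 0.0432. All 7 lay above 0 on all 5 arrays. The calls rest on few arrays: 16 members were called without array 1, and 0 without array 2, 3, 4 or 5. The count was also 0 without the dye term and with array 2 of 6 h turned, and 3 with a separate dye term for ScanAlyze 2.33. The shares of all targets called in these settings are not given here.

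At 18 h the members' medians were 0.21 on array 1 and 0.17 on array 2, against -0.01 and -0.03 over all named genes. Of the 88, 47 (53.4%) were above 0 on both arrays, against 23.4% of all named genes and 26.1% of those above the 12 h bound. At least 1 on both was reached by 4 members, against 0.3% of named genes. These were AT3G53990 at 1.93 and 1.67, AT3G15630 at 1.56 and 1.20, AT1G25275 at 1.55 and 1.11, and AT4G09500 at 1.03 and 2.08. In the limma fit 0 members and 0% of targets passed at 18 h. At an unadjusted p under 0.05 there were 12 members, against 5.99% of targets.

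At 24 h against 0 h, a full day apart, the members lay close to the other genes. Their median was 0.12 on the single array, against 0.04 over all named genes, and 54 of 88 (61.4%) were above 0, against 54.0%. Values ran from -0.86 for AT5G66790 to 0.86 for AT3G62870, so none reached 1 in either direction. The limma fit called 0 members and 0.0177% of targets, and 0 members had an unadjusted p under 0.05, against 3.22% of targets. RNA of 24 h is also the earlier sample of the 36 h arrays.

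**Figure D3:**
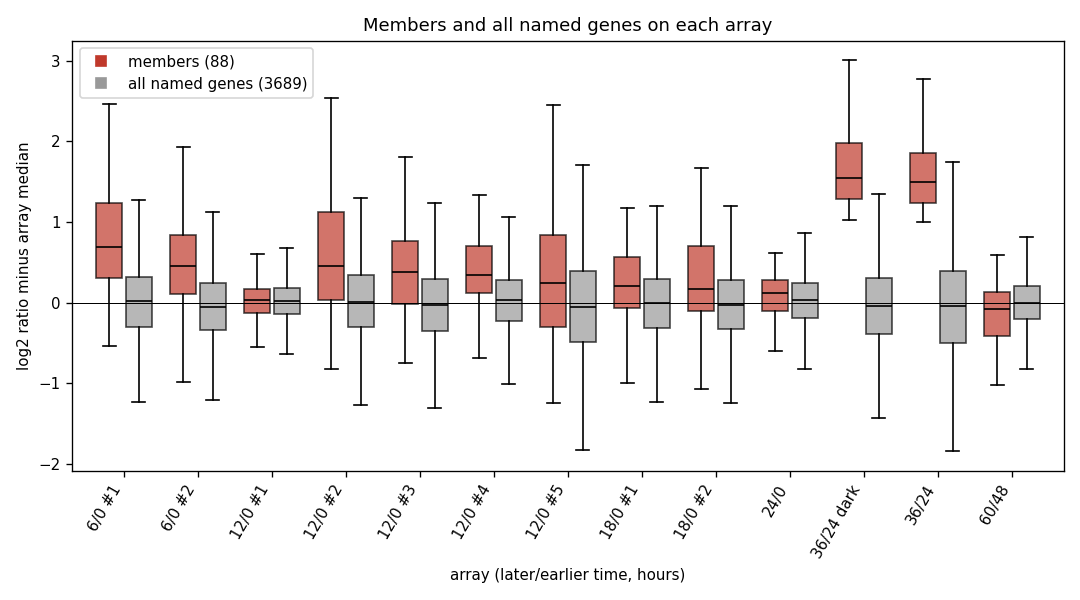
Centred log2 ratio, later over earlier time, of the 88 members (red, left of each pair) and all 3689 named genes (grey, right) on each array, with boxes from the 25th to the 75th percentile, the median as a line, and whiskers to the furthest value within 1.5 box lengths. The members' median lies highest on the 36 h arrays, by the rule, is above 0 on both 6 h arrays, and is -0.078 on the 60 h array.

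Of the 42 genes that met the 36 h thresholds but not the 12 h bound, 8 were also left out by name and 34 were not. For these 34 the median of means was -0.16 at 6 h, -0.13 at 18 h, -0.05 at 24 h and -0.03 at 60 h, against 0.57, 0.27, 0.12 and -0.08 for the members. The comparisons with 0 h share their reference with the bound.

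The array of 60 h against 48 h has no time in common with the rule. It covers the same hours of the day, 1 day later, in plants kept in continuous light. As a group the members were not higher there: their median was -0.08, from -2.01 to 0.59 over the 87 members measured, against -0.01 over all named genes. Of these 87, 35 (40.2%) were above 0, against 48.3% of all named genes and 46.4% of those above the 12 h bound. At or above 1 there were 0 members, against 1.71% of named genes. The highest members were AT1G07310 at 0.59, AT4G25670 at 0.42, AT1G33970 at 0.41, AT3G10300 at 0.39 and AT1G80870 at 0.39.

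At or below -1 at 60 h there were 5 members, against 0.98% of named genes. AT4G09500 was the lowest at -2.01, with 2.34 on the dark array and 1.46 on the other 36 h array. AT3G24450 stood at -1.57, with 1.29 and 1.13 at 36 h. AT4G39670 stood at -1.46, with 1.10 and 1.74. AT4G25160 stood at -1.26, with 1.17 and 1.23, and AT4G33980 at -1.02, with 1.05 and 2.41. These 5 loci were above 1 from 24 to 36 h and below -1 from 48 to 60 h. They were picked as the lowest members at 60 h. Each has 1 feature, so its 60 h value is 1 spot on 1 array.

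With 1 array, the limma fit called 0 of 87 members at 60 h, in either direction, and 0.585% of targets. At an unadjusted p under 0.05 there were also 0 members, against 5.45% of targets, and the smallest adjusted p was 0.921. After the dye term the members' median was -0.17, with 26 of 87 above 0, against 45.9% of targets. This comparison rests on a single array and on the assumption that it varies like the others.

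Between the change from 48 to 60 h and the change from 0 to 6 h, which share no time, the members' median difference in the limma fit was -0.72, against -0.02 over all targets. These intervals differ in length and end at different times of day, so this does not compare days at the same hours. The fitted 60 h value also carries a dye term that comes from the arrays of 6 h and 12 h. The difference was below 0 for 82 of 87 members, against 51.7% of targets. With array 2 of 6 h turned, the median difference was -0.25, with 67 of 87 below 0 against 52.6% of targets, and 0 members passed at an unadjusted p under 0.05, against 3.89% of targets. This contrast was chosen after the values were seen. It called 0 members and 0.18% of targets, and 19 members passed at an unadjusted p under 0.05, against 7.9% of targets. The largest difference was that of AT4G09500, at -4.03 (adjusted p = 0.12).

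**Figure D4:**
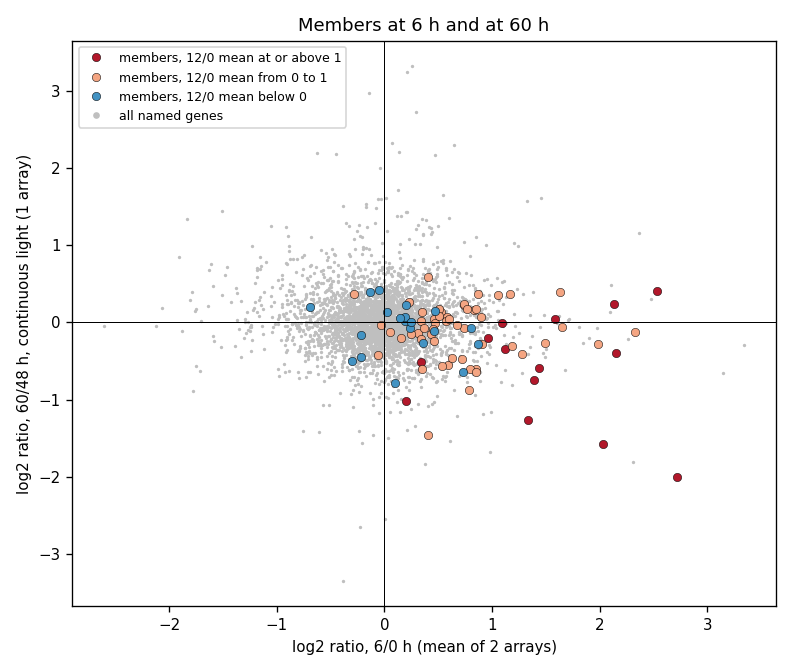
Log2 ratio at 6 h against 0 h (mean of 2 arrays, horizontal axis) and at 60 h against 48 h (1 array in continuous light, vertical axis) for the members, coloured by their mean over 4 arrays of 12 h, and for all named genes (grey). Most members lie right of 0, and the lowest member on the 60 h axis is AT4G09500 at -2.01.

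The members were split by their 12 h mean, which the rule used as a bound. The 14 members with a 12 h mean of at least 1 had a median of -0.45 at 60 h (-2.01 to 0.41), the 54 members between 0 and 1 had -0.07 (-1.46 to 0.59), and the 20 members below 0 had -0.03 (-0.79 to 0.42). The 3 ranges overlap. All named genes were not split in this way, so nothing particular to the members is read from these medians. On the dark array the 3 medians were 1.61, 1.52 and 1.46, and on the other 36 h array 1.50, 1.49 and 1.54. At 6 h, which shares 0 h with 12 h, the medians were 1.41, 0.60 and 0.19.

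**Figure D5:**
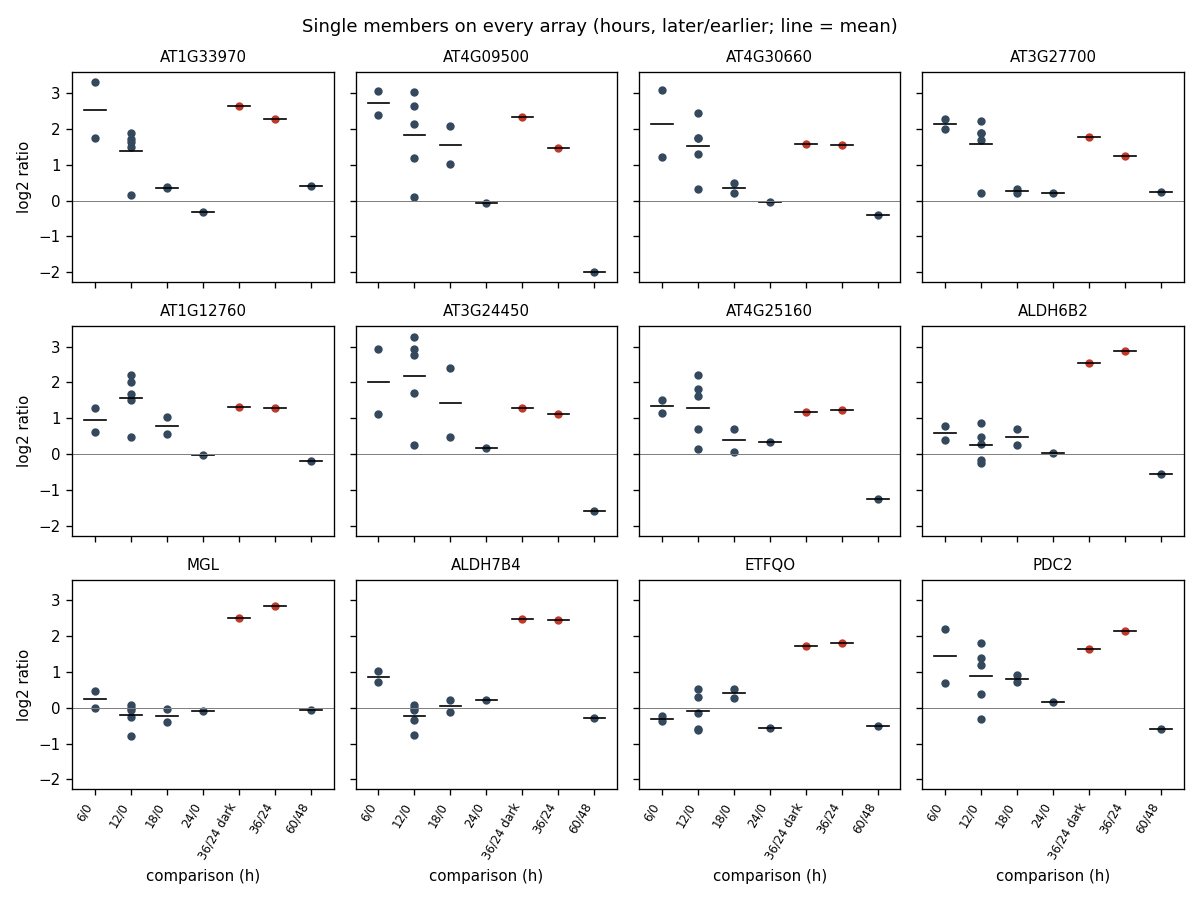
Centred log2 ratio, later over earlier time, of the 7 members called at 12 h, then of ALDH6B2, MGL, ALDH7B4, ETFQO and PDC2, in each comparison, with 1 point per array, red for the 36 h arrays, and a line at the mean. AT4G09500, AT3G24450 and AT4G25160 lie at or below -1 at 60 h. The red points are at or above 1 by the rule.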

How the data were processed

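Each array was deposited as log2 ratios, 1 for every feature. Per the labels, ScanAlyze 2.33, 2.42 or 2.44 was used for scanning, and no source used here gives the background correction or normalization. Log2 follows from the values, among which -1 occurs 159 times, against a mean of 20.4 at neighbouring steps. Arrays held 12446 to 12795 values. Groups follow the channel labels. Of 12800 features, 5197 name a single gene and 7389 are not listed in the annotation; symbols come from the RefSeq table of TAIR10.1, which matched 5190 features. No positions are given, since no source used here gives the array's genome build.

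Ratios were centred on the array median, turned to later over earlier, and averaged per gene. In R 4.3.3, lmFit and eBayes of limma 3.58.1 were run over all 13 arrays, for 11290 of 11292 targets with values on at least 10 arrays, with 5 residual degrees of freedom, after a test on simulated data. A target is called where its adjusted p (Benjamini-Hochberg) is under 0.05. Only 6 h and 12 h had both channel orders, so the dye term of the other comparisons comes from those. The word biological stands on 3 titles and nothing else speaks of separate plants, so p-values measure the spread between arrays, whose number limits the precision.

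The members and lists were chosen with earlier results of these data known. The 49 named members include the 20 highest at 36 h, those called, the 5 highest and lowest at 60 h and the 5 highest at 12 h. They also include the 3 nearest inside each threshold, those on a list, and those with 3 or more features. The 3 genes nearest outside each threshold are given beside them. Not all of the 49 are printed in the text. Other members printed were chosen after their values were seen. Promoter motifs were not searched here. Alternatives changed the dye term, the centring, the spread, array 2 of 6 h, the minimum of values and single arrays.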

Additional observations from a re-analysis of the deposited data

Results flagged for a closer look

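Among 50 groups of 5 arrays of 12 h against 0 h (49 named members and the members' median), 6 held an array far from the others. A rate of about 1 in 20 holds only for arrays that vary alike and genes not chosen by these values. Array 1 had narrower ratios and some members were named for high 12 h values, so the 6 cannot be set against that rate. Array 1 stood apart, low, for AT1G33970 (0.17, others 1.50 to 1.90) and AT3G27700 (0.21, others 1.70 to 2.23). Array 5 was low for AT3G02340 (-1.24, others -0.14 to 0.20), OSM34 (-0.54, others 0.16 to 0.27) and HON4 (-0.85, others -0.0003 to 0.27). Array 3 was high for AT4G39670 (1.13, others -0.20 to -0.06).

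For 6 of the 49 named members, the 60 h array lay on the other side of 0 from all 5 arrays of 12 h. These were AT4G09500 at -2.01, AT3G24450 at -1.57, AT4G25160 at -1.26, AT4G30660 at -0.40 and AT1G12760 at -0.20 on the 60 h array, all above 0 on every array of 12 h, and AT5G63620 at 0.07, below 0 on every array of 12 h. The members' median was -0.078 at 60 h, beside 1.55 and 1.50 at 36 h, which the rule fixed. Some of the 49 were named for being high at 12 h or low at 60 h. Over all members with values, 12 of 87 lay on opposite sides in this way (13.8%), against 6.72% of named genes. Of the members above 0 on all 5 arrays of 12 h, 11 of 20 (55.0%) were below 0 at 60 h, against 138 of 293 named genes (47.1%). These differences between 60 h and 12 or 36 h were not tested.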

How the results depend on the processing

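Counts of called members depended on the processing. They are given here without the share of all targets called in each setting, so only their instability is read. At 6 h the count was 0, and 6 with values on all 13 arrays; leaving out single arrays gave 0 to 10. At 12 h it was 7, but 0 without the dye term, 0 with array 2 of 6 h turned and 3 with a separate dye term for ScanAlyze 2.33; leaving out single arrays gave 0 to 16. The 7 genes called at 12 h kept their sign under all 15 alternatives, with adjusted p between 0.000536 and 0.315. At 18, 24 and 60 h the count was 0 under every alternative run. The fitted median at 6 h (0.57) was 0.15 with array 2 turned and 0.48 to 0.63 without single arrays. At 18 h (0.32) it was 0.27 without the dye term (0.2727), 0.27 without centring (0.2698), 0.29 with array 2 of 6 h turned, and 0.23 to 0.36 without single arrays. Without single arrays it was 0.22 to 0.34 at 12 h (0.27), -0.03 to 0.09 at 24 h (0.06) and -0.23 to -0.14 at 60 h (-0.17). The number of members was 87 with the median of a gene's features, 101 without centring, holding all 88, and 80 with dye-corrected 36 h values, 71 of them shared. No paired analysis was possible because the labels give no replicate numbers shared between comparisons. The promoter motifs and the classes by product name were not run or void.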

Other observations

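Most of the array carries no gene name here. Of the 7603 features without a single gene, 306 met every threshold of the rule, against 88 of the 3689 named genes, which are averages over their features. What these 306 features measure, and whether they are further spots of the same genes, is not analysed here.

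The members' residual spread in the limma fit was close to that of other targets, with a median SD of 0.465 for the members and 0.409 for all targets. The median dye term was 0.05 for the members and 0.04 for the named genes.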
